A study of Sus scrofa with 2 samples.

Results

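Beta nuclei of the pig pancreas are described here from single-nucleus RNA sequencing, in which each nucleus receives a barcode and each captured RNA molecule a unique molecular identifier (UMI). Of 28583 barcodes in both libraries, 267 were beta nuclei, 142 from the WT pig and 125 from the PIGinH11 pig. They were chosen on measured values. A barcode had to hold 270 to 3700 genes and fewer than 13000 UMIs, and at least 3 UMIs and 0.5% of UMIs from a panel of 7 endocrine genes (PCSK2, KCNB2, GRIA3, NOL4, RIMS2, RAB3C and SNTG1). INS had to reach at least 2 UMIs and 0.15% of UMIs and exceed GCG, SST and PPY, while RBPJL, a transcription factor of acinar cells, had to stay below 0.1% of UMIs. The levels of these genes and the number of nuclei are therefore descriptions of the choice.

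The WT group was 1 wild-type Bama pig. The PIGinH11 group was 1 Bama pig with GIPRdn (a dominant-negative receptor for the incretin GIP), hIAPP (human islet amyloid polypeptide) and PNPLA3 I148M knocked in at the H11 locus under promoters for beta cells or liver. Both pigs were 18 months old, had received control diet until 6 months of age and then a high-fat and high-sucrose diet (HFHSD) for 12 months, and 1 piece of pancreas was taken from each. The matrices count the annotated pig genes, and the transgenes have no row of their own. Each group had 1 library. No test between the groups was therefore possible, and the intervals given are 95% intervals of counting error, which do not cover differences between animals or tissue pieces.

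Beta cells sense glucose and secrete insulin. Glucose enters through a transporter (SLC2A2 encodes GLUT2), is metabolised, and the ATP made from it closes the KATP channel built from KCNJ11 and ABCC8. Calcium then enters through voltage-gated channels and insulin granules fuse with the membrane, a step that incretins strengthen through cyclic AMP. The islet transcription factors PDX1, NKX6-1, PAX6 and RFX6 maintain this program, and beta cells use many genes of excitability and synaptic adhesion that are better known from neurons.

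In the WT library, 13189 of 13619 barcodes lay within the limits on genes and UMIs, 316 of these passed the panel, 292 also passed the limit on RBPJL, 145 passed the limits on INS and 142 had INS above the other hormones. In the PIGinH11 library the same steps left 14908 of 14964, then 469, 384, 129 and 125. Beta nuclei made up 1.08% (0.908 to 1.27%, Clopper–Pearson) of the WT and 0.838% (0.698 to 0.998%) of the PIGinH11 barcodes within the limits. Among the endocrine nuclei, those that passed the panel and the RBPJL limit, beta nuclei were 48.6% (42.8 to 54.5%) in the WT and 32.6% (27.9 to 37.5%) in the PIGinH11 library. INS decided this share, and the intervals count nuclei of 1 library each, so the values are a description. Alpha nuclei, taken by the same rule with GCG in place of INS, were 13.7% (40 nuclei) and 13.5% (52 nuclei), delta nuclei (SST) numbered 11 and 19, and gamma nuclei (PPY) 2 and 9. Endocrine nuclei without any hormone past its limits were 33.2% in the WT and 46.6% in the PIGinH11 library. Depth moved with this difference, since the median WT beta nucleus held 4212.5 UMIs and 2069 genes and the median PIGinH11 beta nucleus 2255 UMIs and 1423 genes. Over all endocrine nuclei the medians were 3487 and 1757 UMIs. With every barcode thinned to 1000 UMIs before the rule was applied, beta nuclei were 47.8% and 32.1% of endocrine nuclei, from 118 and 80 beta nuclei. That comparison left out 1155 WT and 6093 PIGinH11 barcodes that were too shallow.

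Before the results, 3 features of the libraries are given. The libraries shared 60 barcode sequences, of which 1 beta nucleus in each library carried one. By the Scrublet score, which rises when a barcode looks like 2 nuclei, 18 WT and 13 PIGinH11 beta nuclei were among the 1463 and 1615 barcodes with the highest scores. Of the barcodes that met every other part of the rule, 27 in the WT and 9 in the PIGinH11 library were above the limits on genes or UMIs and are not counted as beta nuclei, and 7 and 15 had RBPJL above its limit. UMIs of other hormones were few, with a GCG UMI in 12 and 7 beta nuclei, an SST UMI in 1 and 3, and a PPY UMI in 7 and 3. In 3 PIGinH11 beta nuclei another hormone was past its own limits. One held 3 SST beside 7 INS UMIs, and the other two held 16 and 8 PPY beside 60 and 31 INS UMIs and no UMI of CADM2, PLCXD3, SLC2A2 or GRM5, the markers by which the class is checked below. Without these 3 nuclei, a step added after seeing the data, 176 genes were at least 2-fold higher and 126 at least 2-fold lower in PIGinH11 beta nuclei, in place of 173 and 128.

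INS (chr2:1496842-1498052 in Sscrofa11.1) chose the nuclei, so its level is a description. In the WT beta nuclei it held 0.152% of UMIs in the lowest nucleus, 0.475% in the median and 5.28% in the highest, and in PIGinH11 beta nuclei 0.157%, 0.446% and 4.73%. The endocrine nuclei just outside the limit had 0.148% and 0.147%. In counts the median nucleus held 21 INS UMIs in the WT and 10 in the PIGinH11 library. A few nuclei carried much of the total, since the 10 nuclei with most INS held 38.2% of the INS UMIs in the WT and 39.0% in the PIGinH11 beta nuclei. Summed over beta nuclei, INS had 5742 of 657833 UMIs in the WT and 2165 of 374945 in the PIGinH11 library, which is 8729 CPM (UMIs of the gene per 1000000 UMIs of the class, not corrected for gene length) and 5774 CPM. The PIGinH11 level over the WT level gave a log2 ratio of −0.60 (−0.67 to −0.52). Taken as the mean over nuclei it was −0.43, and among endocrine nuclei chosen without INS, as those where no other hormone passed its limits (239 and 301 nuclei), it was −1.05. INS UMIs were also counted in acinar nuclei (182 and 91.4 CPM) and ductal nuclei (164 and 83.7 CPM), and both classes have no panel UMI. Whether these INS UMIs came from free RNA of other cells was not tested. Acinar nuclei hold RBPJL at 0.1% of UMIs or more, and ductal nuclei hold SLC4A4 at 1% or more and had no RBPJL UMI. A UMI of INS was seen in 40.2% of WT and 10.9% of PIGinH11 ductal nuclei. At an even depth of 1000 UMIs the expected shares were 98.2% and 97.6% in beta and 17.7% and 6.95% in ductal nuclei.

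**Figure D1:**
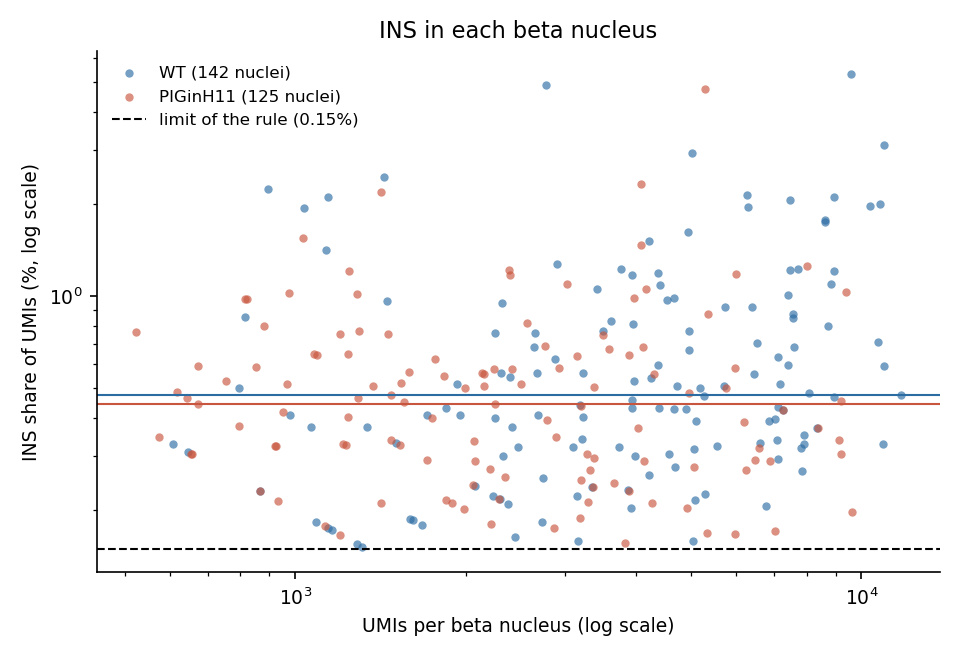
Each point is 1 beta nucleus, with its UMIs on the x axis and the share of INS among them (%) on the y axis, both on log scales; coloured lines are the medians of the libraries (0.475% in WT and 0.446% in PIGinH11) and the dashed line is the limit of the rule. The nuclei of both libraries spread from the limit to about 5%, and the PIGinH11 nuclei reach further to the shallow side.

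The 7 panel genes also served in the rule. They summed to 17985 and 15616 CPM, led by the proinsulin convertase PCSK2 with 7449 and 4745 CPM (log2 ratio −0.65), and the other 6 had log2 ratios from −0.42 (NOL4) to 0.45 (SNTG1).

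The name of the class was checked on 4 markers that were not part of the rule, though they were chosen with these data known. CADM2, a synaptic cell adhesion gene, had 8201 CPM in WT and 9967 CPM in PIGinH11 beta nuclei, against 622 and 934 CPM in alpha and 1242 and 452 CPM in delta nuclei. PLCXD3, a phospholipase C-like gene, had 2333 and 2379 CPM in beta, 398 and 179 CPM in alpha and 266 and 104 CPM in delta nuclei. SLC2A2, the GLUT2 transporter, had 982 and 683 CPM in beta nuclei, no UMI in the alpha nuclei of either library, and 2 and 0 UMIs in delta nuclei. GRM5, a metabotropic glutamate receptor, had 2881 and 1118 CPM in beta nuclei, 16.4 and 126 CPM in alpha and 266 and 712 CPM in delta nuclei. All 4 were thus higher in beta than in alpha and delta nuclei of both libraries. In acinar nuclei CADM2, PLCXD3, SLC2A2 and GRM5 had 24.3, 8.48, 2.40 and 12.3 CPM in the WT library. Other genes that define beta cells were low or missing, since MAFA had 0 and 1 UMI, IAPP (islet amyloid polypeptide) 0 UMIs in both libraries, PDX1 38 and 39 UMIs and NKX6-1 41 and 21 UMIs. A count of 0 in IAPP allows up to 4.56 CPM in the WT and 8.00 CPM in the PIGinH11 beta nuclei (3 UMIs of the class). The pig IAPP gene is listed at chr5:52046570-52051475, and over acinar and ductal nuclei it had 1 UMI, in the PIGinH11 library.

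Genes that set beta nuclei apart from the other islet nuclei were taken as those at least 4-fold higher than in alpha and in delta nuclei of both libraries, with 5 CPM added. Of 3844 genes with a mean of at least 50 CPM in beta nuclei, 44 met this (1.14%), while 7 were at least 4-fold lower (0.182%). The alpha and delta sums are small (40 and 11 WT nuclei), and the beta nuclei were chosen on INS, so the folds are descriptions. CA10, a carbonic anhydrase-related protein that binds neurexins, led the list with 787 and 419 UMIs in beta nuclei, 1 and 0 in alpha and 1 and 0 in delta nuclei, or 1196 and 1118 CPM in beta nuclei. PLPP4 (a lipid phosphatase) and KCNG3 (a modifying subunit of voltage-gated potassium channels) followed with 179 and 184 CPM and with 182 and 165 CPM in beta nuclei, and neither had a UMI in alpha or delta nuclei. ZNF385D, a zinc finger gene, had 655 and 477 CPM, against at most 21.8 CPM in alpha nuclei and no UMI in delta nuclei.

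GAD2, the enzyme GAD65 that makes GABA and is an autoantigen in type 1 diabetes, had 683 and 872 CPM in beta nuclei, 5.46 and 13.2 CPM in alpha nuclei, and 0 and 69.5 CPM in delta nuclei. DGKG, a diacylglycerol kinase, had 287 and 419 CPM, PPM1E, a phosphatase, 680 and 811 CPM, and DOCK10, a guanine nucleotide exchange factor, 269 and 403 CPM. ERO1B, the oxidase that drives disulfide formation in proinsulin, had 1140 and 605 CPM in beta nuclei and 120 and 79.5 CPM in alpha nuclei, and was also high in acinar nuclei (1171 and 900.5 CPM). GLIS3, a transcription factor of insulin gene expression, had 1534 and 1179 CPM in beta nuclei and 3515 and 3405 CPM in ductal nuclei. KLHL14, LRRTM4, SLC4A10, SYNDIG1L and SLC2A2 complete the 15 leading genes. INS, which chose the nuclei, also met the limit and is left out of this ranking. Most of the 15 had similar levels in both libraries, with log2 ratios from −0.46 (ZNF385D) to 0.58 (DOCK10), and the lower values were SLC2A2 (−0.52), ERO1B (−0.91) and LRRTM4 (−1.33).

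**Figure D2:**
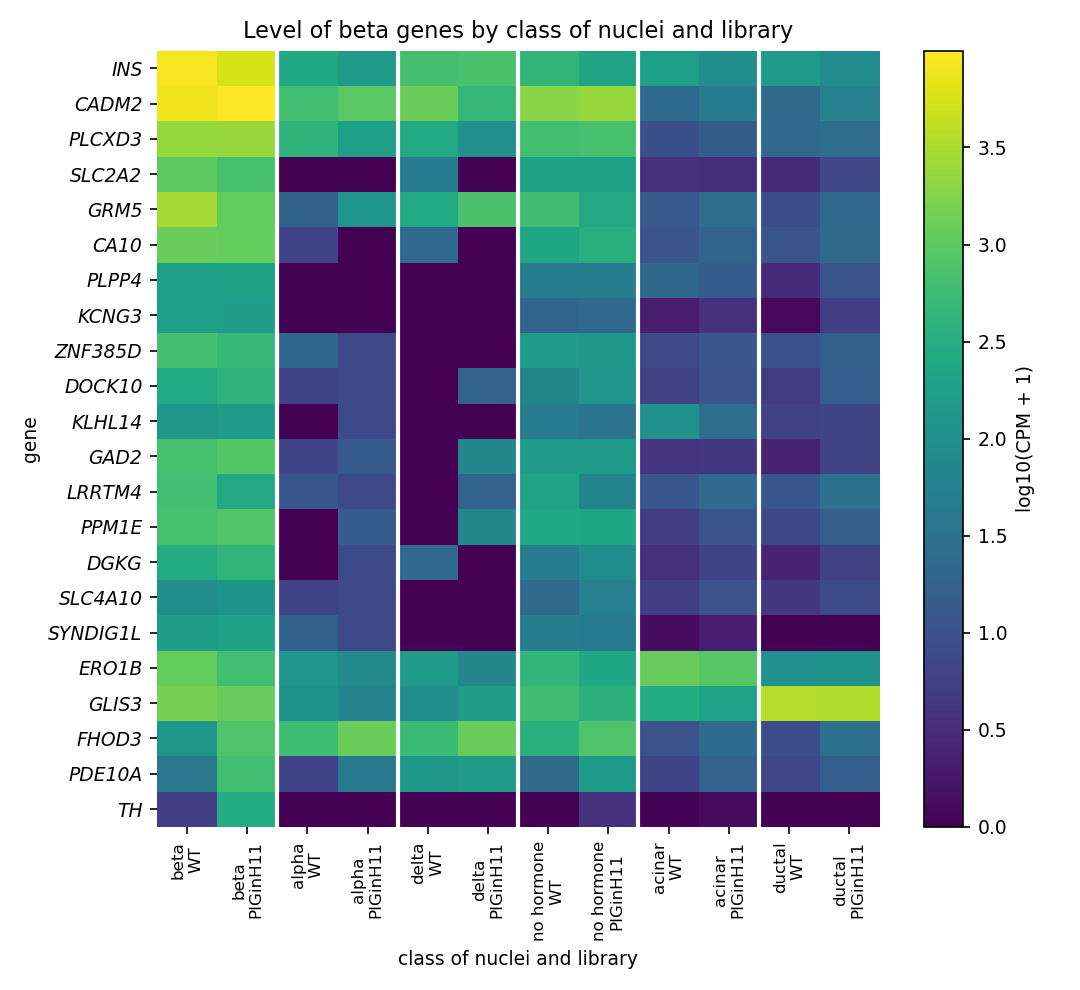
Colours give log10(CPM + 1) of each gene (rows) in beta, alpha, delta and hormone-negative endocrine nuclei and in acinar and ductal nuclei of each library (columns). The rows from CA10 to GLIS3 are brighter in both beta columns than in the alpha and delta columns, and FHOD3, PDE10A and TH differ between the 2 beta columns.

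The endocrine nuclei without a hormone held these genes at levels between those of beta nuclei and of alpha nuclei. CADM2 had 1935 and 2385 CPM there, CA10 228 and 325 CPM, SLC2A2 195 and 186 CPM and GAD2 163 and 158 CPM. Their alpha markers summed to 9455 and 9000 CPM, against 2782 and 3974 CPM in beta and 18397 and 19454 CPM in alpha nuclei. Depth was lower in these nuclei, with medians of 2550 and 1271 UMIs, and 86 WT and 68 PIGinH11 endocrine nuclei had INS UMIs below the limits.

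The 10 most abundant genes of beta nuclei by CPM were, beside INS, PCSK2, CADM2 and the trypsinogen PRSS2, a gene without a symbol at 16261 and 16018 CPM that had similar levels in alpha and acinar nuclei, the splicing factor RBFOX1 (5603 and 6100 CPM, against 1097 and 2073 CPM in alpha and 6653 and 4309 CPM in delta nuclei), CACNB2, PDE4D, KCNMA1 and SGCZ, a sarcoglycan (3059 and 3110 CPM, against 213 and 755 CPM in alpha and 2240 and 1981 CPM in delta nuclei). RBFOX1 and SGCZ differed little between the libraries, with log2 ratios of 0.12 and 0.02.

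Between the libraries, 173 of the 3844 genes (4.5%) were at least 2-fold higher and 128 (3.33%) at least 2-fold lower in PIGinH11 than in WT beta nuclei, and the median log2 ratio of all 3844 was 0.06. These counts moved with the processing, with 499 higher and 389 lower when every barcode was thinned to 1000 UMIs, 407 and 301 when the beta nuclei were thinned, and 346 and 55 of 1674 genes with the level of nuclei without panel UMIs subtracted. Without the nucleus of each library that held most UMIs of a gene, 157 and 126 genes passed. The 10 highest ratios among genes with a symbol and at least 100 CPM on average belonged to TH, PDE10A, FHOD3, PDGFD, CCSER1, KIAA0930, SIPA1L2, DNAH5, OSBPL10 and BCKDHB. The 10 lowest belonged to PRSS2, CELA2A, MT1X, MT1A, CTRC, TFF2, PLA2G1B, KLK1, TPT1 and CPA1.

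**Figure D3:**
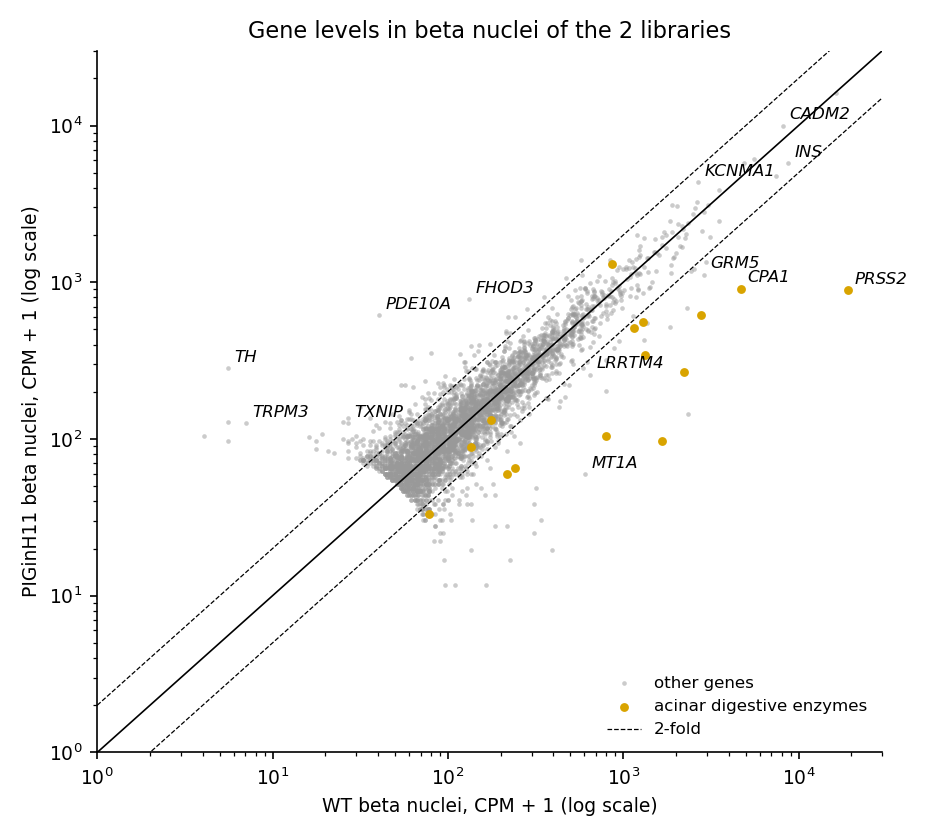
Each point is 1 of the 3844 genes with a mean of at least 50 CPM, with its level in WT beta nuclei on the x axis and in PIGinH11 beta nuclei on the y axis (CPM + 1, log scales); solid line, equal levels; dashed lines, 2-fold. Most genes lie between the dashed lines, the digestive enzymes lie mostly below them, and TH, PDE10A and FHOD3 lie above. The empty lower left corner comes from the filter on the mean.

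PDE10A, a phosphodiesterase that degrades cyclic AMP and cyclic GMP, had 26 UMIs in WT and 230 in PIGinH11 beta nuclei, or 39.5 and 613 CPM. The log2 ratio was 3.96 (3.37 to 4.60). It was found in 12.0% of WT and 49.6% of PIGinH11 beta nuclei, although the PIGinH11 nuclei were shallower, and the highest nucleus held 5 and 23 UMIs. At an even depth of 1000 UMIs the expected shares were 3.11% and 37.8%, against 0.693% and 1.39% in ductal nuclei. PDE10A was thus spread over many PIGinH11 beta nuclei and rare in WT ones. In the endocrine nuclei without a hormone it had 22.8 and 156 CPM. In alpha nuclei it had 1 and 6 UMIs, or 5.46 and 39.7 CPM. In delta nuclei it had 6 and 9 UMIs, or 133 and 156 CPM (log2 ratio 0.23, −1.42 to 2.00). From these few UMIs, PDE10A was higher in delta than in beta nuclei of the WT. In acinar nuclei it had 5.84 and 16.9 CPM, a log2 ratio of 1.53 (1.20 to 1.87).

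FHOD3, a formin that assembles actin filaments, had 86 and 291 UMIs, or 131 and 776 CPM, with a log2 ratio of 2.57 (2.22 to 2.93). It was found in 29.6% of WT and 73.6% of PIGinH11 beta nuclei, with expected shares of 10.7% and 50.9% at 1000 UMIs, against 1.27% and 2.13% in ductal nuclei. FHOD3 was higher in the PIGinH11 library in each of the classes given here, since alpha nuclei had 567 and 1271 CPM (log2 ratio 1.16) and delta nuclei 532 and 1164 CPM (1.13), and nuclei without a hormone 348 and 776 CPM. Acinar nuclei had 9.56 and 24.4 CPM (1.35, 1.09 to 1.62) and ductal nuclei 8.00 and 29.1 CPM (1.86, 1.19 to 2.56). In both libraries it was lower in beta than in alpha and delta nuclei.

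TH, tyrosine hydroxylase, the first enzyme of catecholamine synthesis, had 3 UMIs in 3 WT beta nuclei and 106 UMIs in 7 PIGinH11 beta nuclei. The PIGinH11 nuclei held 35, 29, 26, 12, 2, 1 and 1 TH UMIs, so 4 nuclei made up nearly all of the sum, and the log2 ratio of 5.95 (4.37 to 8.25) rests on them. As a mean over nuclei it was 3.27. Those 4 nuclei were deep, with 7281, 9612, 8000 and 3191 UMIs, and held 31, 19, 100 and 14 INS UMIs and 43, 81, 71 and 34 CADM2 UMIs. Against a median of 0.297% over PIGinH11 beta nuclei, alpha markers made up 1.17, 1.07, 0.66 and 0.56% of UMIs in these 4. The next enzyme of the pathway, DDC, had 4 UMIs in the second and 1 in the third of these nuclei and none in the other two. None of them had a UMI of DBH, which turns dopamine into noradrenaline, or of the vesicular transporters SLC18A1 and SLC18A2. No TH UMI was found in alpha or delta nuclei, and acinar nuclei had 2 and 4. In the annotation TH (chr2:1499628-1506180) is the neighbour of INS on chromosome 2.

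The other high ratios were smaller. PDGFD, a growth factor, had 52 and 132 UMIs (log2 ratio 2.16) in beta nuclei and was most abundant in ductal nuclei (1302 and 998 CPM), and OSBPL10, a lipid transfer protein gene, had 89 and 146 UMIs (1.53). BCKDHB, a subunit of the enzyme complex that breaks down branched-chain keto acids, had 145 and 225 UMIs (1.44), 28 of them in 1 PIGinH11 nucleus. DNAH5, an axonemal dynein, had 76 and 130 UMIs (1.59). CCSER1 had 35 and 83 UMIs (2.06), KIAA0930 41 and 80 (1.78) and SIPA1L2, a GTPase-activating protein gene, 48 and 88 (1.69). In acinar nuclei CCSER1 had 286 and 370 CPM, against 53.2 and 221 CPM in beta nuclei. SIPA1L2 had 225 and 286 CPM there, against 73.0 and 235 CPM. BCKDHB had 297 and 311 CPM there, against 220 and 600 CPM, so it was higher in acinar nuclei in the WT only. KIAA0930, DNAH5 and OSBPL10 were lower in acinar than in beta nuclei of both libraries.

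GRM5 was the marker of the class that differed most. It had 1895 UMIs in WT and 419 in PIGinH11 beta nuclei, 2881 and 1118 CPM, with a log2 ratio of −1.37 (−1.52 to −1.21). The median nucleus held 9 UMIs in the WT and 1 in the PIGinH11 library, and the highest 64 and 34. GRM5 was found in 93.7% and 66.4% of beta nuclei, and at an even depth of 1000 UMIs the expected shares were 86.2% and 53.0%, against 1.25% and 1.73% in ductal nuclei. The endocrine nuclei without a hormone had 585 and 254 CPM. CADM2 and PLCXD3 did not share this difference, with log2 ratios of 0.28 (0.22 to 0.34) and 0.03 (−0.09 to 0.15).

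**Figure D4:**
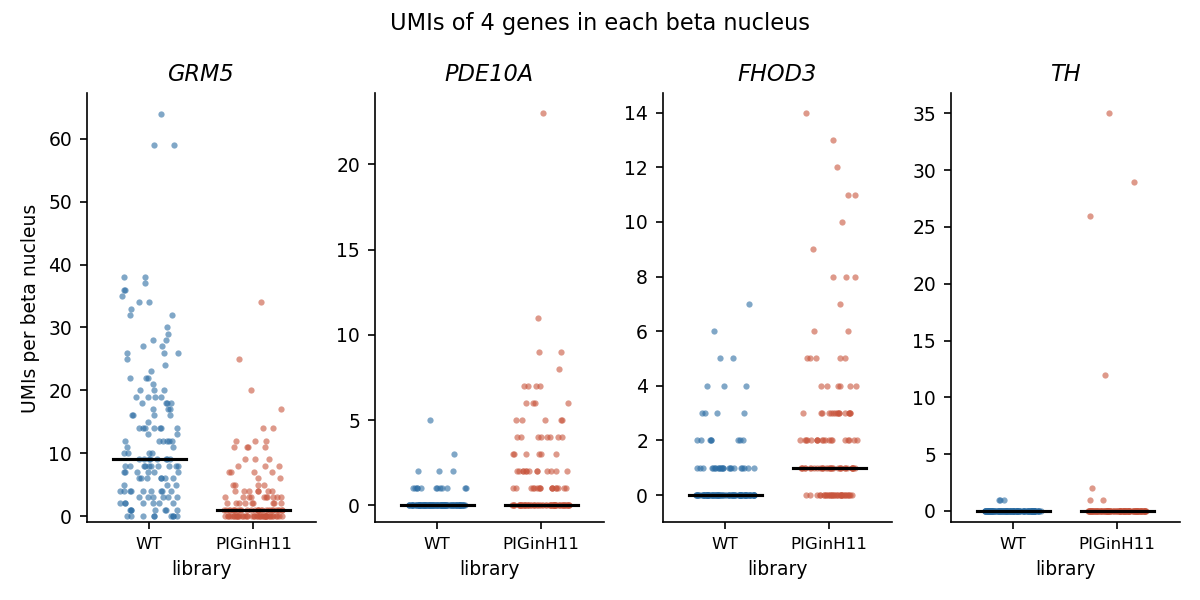
Each point is 1 beta nucleus of the library on the x axis, and the y axis gives its UMIs of the gene on a scale of its own; black lines are medians. GRM5 has medians of 9 and 1, PDE10A and FHOD3 are spread over more PIGinH11 nuclei, and the TH UMIs lie in a few PIGinH11 nuclei. Depth was not made even here.

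The lists of genes that follow were written with earlier results of these data known. They are described by the number of members past the 50 CPM filter that were at least 2-fold higher or lower, to be read beside 4.5% and 3.33% of all genes. The filter was set on the mean of both libraries, so a low gene could pass it through the library where it was high and then had to differ. Of the list members named below as at least 2-fold higher, NKX2-2, ISL1, TRPM3, PTPRN, PDE8B, PDE10A, PDIA3, TXNIP, NTM, PCNA and PECAM1 had less than 50 CPM in the WT. They passed through the PIGinH11 library alone, and among the lower ones SCTR passed through the WT library alone. The counts of these members are therefore no support for a direction of a list. Of the islet transcription factors 17 of 26 measured genes passed the filter, 2 were at least 2-fold higher and none lower, and the median log2 ratio was 0.05. These were NKX2-2, with 24 and 31 UMIs (1.18, 0.36 to 2.01), and ISL1, with 22 and 27 UMIs (1.11, 0.24 to 1.99). PDX1, the regulator of the insulin gene, had 57.8 and 104 CPM (0.85, 0.17 to 1.53), PAX6 417 and 389 CPM (−0.10, −0.40 to 0.20) and RFX6 442 and 339 CPM (−0.39, −0.70 to −0.08). The counts of the first 3 are low, and their intervals reach ratios well below 2-fold.

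In glucose sensing 4 of 17 measured genes passed the filter and none was past 2-fold. SLC2A2 had 646 and 256 UMIs (−0.52, −0.74 to −0.31), and its log2 ratio was −1.08 among nuclei with INS of at least 5 UMIs and 0.5%. PFKFB2, which sets the level of an activator of glycolysis, had 249 and 264 CPM (0.08).

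Of the genes of electrical activity 20 of 31 passed the filter, 1 was at least 2-fold higher and 1 at least 2-fold lower, with a median of 0.16. The KATP channel genes ABCC8 and KCNJ11 had 1756 and 2006 CPM (0.19) and 125 and 85.3 CPM (−0.55, −1.18 to 0.06). Among calcium channel genes, CACNA1D had 1947 and 1454 CPM (−0.42, −0.57 to −0.28), CACNA1A 1047 and 1054 CPM (0.01), and CACNA1B 604 and 917 CPM (0.60, 0.39 to 0.82), so the pore-forming genes did not lie on one side. The auxiliary subunit CACNB4 had 488 and 221 CPM (−1.14, −1.51 to −0.79), and CACNB2, the most abundant of the list, 4906 and 5788 CPM (0.24). KCNMA1, the BK potassium channel, had 2662 and 4371 CPM (0.72, 0.62 to 0.81), and was also high in acinar nuclei (4653 and 3775 CPM). TRPM3, a cation channel, was the highest ratio with 4 and 47 UMIs (4.37), but 34 and 10 of the 47 lay in the 2 nuclei with PPY past its limits that lacked the beta markers. Without the nuclei with a second hormone TRPM3 had 4 and 3 UMIs, and no gene of the list was at least 2-fold higher.

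For proinsulin processing and the granule, 16 of 21 genes passed the filter and 1 was at least 2-fold higher, with a median of 0.27. That gene was PTPRN, the granule protein IA-2, with 19 and 39 UMIs (1.85, 1.02 to 2.72). Its relative PTPRN2 had 1241 and 1168 UMIs (0.72, 0.61 to 0.84), CHGA (chromogranin A) 258 and 256 UMIs (0.80, 0.54 to 1.05), and ERO1B 750 and 227 UMIs (−0.91, −1.13 to −0.70). The convertase PCSK1 had 185 and 237 CPM (0.36), the zinc transporter SLC30A8 798 and 704 CPM (−0.18), and CPE, which trims proinsulin after cleavage, 661 and 784 CPM (0.25).

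In exocytosis 19 of 32 genes passed the filter and 2 were at least 2-fold higher, with a median of 0.23. SYT16, a synaptotagmin, had 82 and 116 UMIs (1.31) and SYN2, a synapsin, 48 and 58 UMIs (1.08), while SNAP25, a SNARE protein of the plasma membrane, had 664 CPM in both libraries. Of the receptors and genes of cyclic AMP 16 of 29 passed the filter, and PDE10A and PDE8B (25 and 32 UMIs, 1.17) were at least 2-fold higher. The incretin receptor gene GLP1R had 102 and 115 CPM (0.17, −0.42 to 0.75), and the pig GIPR gene 38.0 and 69.3 CPM (0.87, 0.02 to 1.72), from 25 and 26 UMIs. Reads of a transgene that match the pig gene would be counted under it, and whether they were was not tested. PDE4D, the most abundant of the list, had 3496 and 3851 CPM (0.14).

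Of the genes of endoplasmic reticulum stress and the unfolded protein response 11 of 26 passed the filter, 1 was at least 2-fold higher and none lower, with a median of 0.17. This was PDIA3, a disulfide isomerase, with 23 and 27 UMIs (1.04, 0.19 to 1.91). Under another scaling of the libraries (median-of-ratios) no gene of the list was past 2-fold. ATF6, a sensor of the response, had 198 and 203 CPM (0.04, −0.39 to 0.46), EIF2AK3 (PERK) 190 and 165 CPM (−0.20), and DNAJC3, a co-chaperone, 71.4 and 133 CPM (0.90, 0.30 to 1.51). DDIT3, the stress factor CHOP, had no UMI in either library. Among genes named for loss of beta cell identity or disallowed in beta cells, 2 of 17 passed the filter. TXNIP, a glucose-induced inhibitor of thioredoxin, had 17 and 47 UMIs (2.28, 1.45 to 3.17) and was also higher in PIGinH11 acinar nuclei (380 and 842 CPM), and ALDH1A3 had no UMI.

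The 24 genes that the study named for beta cells all passed the filter and none was past 2-fold, with a median of −0.09. Of these, 4 were at least 4-fold above alpha and delta nuclei, to be read beside 1.14% of all genes. INS is 1 of the 4, and the choice of nuclei fixed it. The study chose the 24 genes on the same libraries, so they are no independent evidence of a direction. Besides those already described, MEIS1 had 316 and 237 CPM (−0.41, −0.79 to −0.05), JAZF1 891 and 741 CPM (−0.26), TTR 655 and 667 CPM (0.03) and ICAM2 112 and 115 CPM (0.03). Of 20 genes at type 2 diabetes loci past the filter 1 was at least 2-fold lower, PTPRD, and the median was 0.08.

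Of the adhesion genes of neurons 27 of 49 passed the filter, 2 were at least 2-fold higher and 5 at least 2-fold lower, and the median was −0.17. Lower were PTPRD (282 and 60 UMIs, −1.42), LRRTM4 (424 and 96 UMIs, −1.33), PTPRT (305 and 69 UMIs, −1.33), ROBO2 (1606 and 445 UMIs, −1.04) and NRXN3 (242 and 68 UMIs, −1.02). PTPRD and PTPRT are receptor phosphatases, LRRTM4 binds neurexins or heparan sulfate across the synapse, ROBO2 is a receptor for Slit guidance cues and NRXN3 is a neurexin. Higher were NTM (25 and 46 UMIs, 1.69) and PCDH7 (57 and 85 UMIs, 1.39). LSAMP (−0.72) and NEGR1 (−0.62) lay on the lower side within 2-fold, and OPCML (0.00), CADM1 (−0.02) and CNTN1 (−0.01) near equal levels. Of 5 glutamate receptor genes past the filter GRM5 alone was past 2-fold, and the kainate receptor genes GRIK1, GRIK2 and GRIK4 had log2 ratios of 0.30, −0.21 and 0.17.

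**Figure D5:**
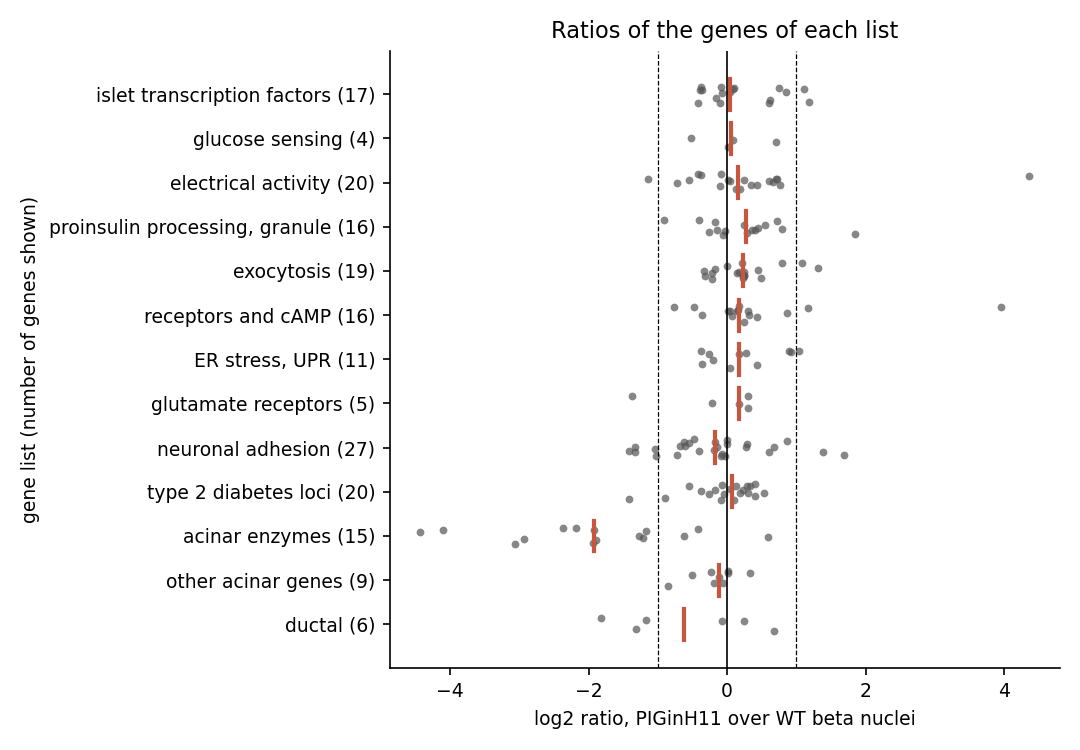
Points are the genes of each list that passed the 50 CPM filter (number in brackets), the x axis is the log2 ratio of PIGinH11 over WT beta nuclei, red bars are list medians and dashed lines mark 2-fold. The lists from islet transcription factors to the stress response have medians from 0.05 to 0.27, neuronal adhesion reaches to both sides, and the acinar enzymes centre at −1.92.

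Markers of other cells were measured in beta nuclei. Digestive enzymes of acinar cells had 12 of 15 genes past the filter at least 2-fold lower in PIGinH11 beta nuclei and none higher, with a median of −1.92. The list of 18 measured genes summed to 36766 CPM in WT and 5972 CPM in PIGinH11 beta nuclei, or 170 and 17.9 UMIs per nucleus, and CTRL was at 0 in both. PRSS2, a trypsinogen and the most abundant of them, had 19093 and 885 CPM in beta, 31579 and 6257 CPM in acinar and 18639 and 1653 CPM in ductal nuclei. It was found in every WT beta nucleus, and 1 WT nucleus held 1698 of 12560 UMIs. The enzyme sum was also lower in the PIGinH11 library in ductal nuclei (35654 and 9123 CPM) and alpha nuclei (24568 and 5979 CPM), and less so in acinar nuclei (81880 and 63000 CPM). The non-enzyme genes of acinar cells differed less, with 1265 and 1200 CPM in beta nuclei, none of 9 past 2-fold, and EXTL1 as the most abundant gene. Of the 10 lowest ratios, PRSS2, CELA2A, CTRC, PLA2G1B and CPA1 are enzymes of the list, and the metallothioneins MT1X (340.5 and 29.3 CPM in beta, 1573 and 327 CPM in acinar nuclei) and MT1A (605 and 58.7, and 3090 and 780 CPM) were also higher in acinar than in beta nuclei. TFF2 (309 and 37.3 CPM), KLK1 (184 and 26.7 CPM) and TPT1 (316 and 48.0 CPM), the remaining 3, were likewise higher in acinar nuclei of both libraries. Ribosomal protein genes, which summed to 3732 and 1456 CPM, had 11 of 16 past the filter at least 2-fold lower. The most abundant, RPLP1, had a mean of 121 CPM, so these genes lie near the filter and could pass it through the WT library alone. Their count is therefore no support for a direction. The 13 mitochondrial genes summed to 570 and 181 CPM.

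Ductal markers had 3 of 6 genes past the filter at least 2-fold lower, and they summed to 1712 and 1035 CPM, with SLC4A4 as the most abundant gene and PIGR at 0 in the PIGinH11 library. Of the ductal UMIs in WT beta nuclei 46.5% lay in the 5 nuclei in which these markers made up at least 1% of UMIs, and no PIGinH11 beta nucleus reached that share. Without 7 WT nuclei that held at least 1% of ductal or non-enzyme acinar markers, the ductal sums were 946 and 1035 CPM, SLC4A4 had 399 and 421 CPM (0.08, −0.22 to 0.37) in place of 946 and 421 CPM, SCTR 0.24 in place of −1.31, and PKHD1 98.1 and 50.7 CPM (−0.95, −1.78 to −0.19) in place of −1.82. The nuclei were left out for these same markers and came from the WT library alone, so the WT ductal sum had to be lower without them, and the values are a description. Alpha markers summed to 2782 and 3974 CPM, with PAPPA2 the most abundant (576 and 1379 CPM, 1.26) and the alpha factor IRX2 at 0 in both libraries. Delta markers summed to 1981 and 1968 CPM, with HS6ST3 the most abundant and HHEX and RBP4 at 0, gamma markers to 4428 and 4566 CPM, most of it SGCZ, and the ghrelin gene GHRL to 30.4 and 13.3 CPM. Endothelial (100 and 264 CPM), fibroblast (16.7 and 24.0 CPM), mural (25.8 and 37.3 CPM) and macrophage markers (30.4 and 45.3 CPM) were low, led by PECAM1, PDGFRA, PRKG1 and MRC1. PECAM1 alone of the endothelial genes passed the filter and was at least 2-fold higher (1.13). So were 1 of 4 alpha and 1 of 4 gamma genes past the filter, while none of 5 delta genes was past 2-fold. The lymphocyte sum of 310 and 232 CPM was nearly all SKAP1, with CD3D, CD2 and IL7R at 0 in both libraries. Their part in the results was not tested.

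Heat shock genes summed to 420 and 229 CPM, with 1 of 13 past the filter (HSP90AA1, 198 and 101 CPM) and HSPA1L and CRYAB at 0 in both libraries. None of 18 immediate early genes passed the filter (sums of 126 and 115 CPM). Of the proliferation genes PCNA alone passed it, with 34.96 and 96.0 CPM (1.46), and TOP2A was at 0.

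Within each library, beta nuclei were ranked by their INS share and split into 3 equal groups, and the INS-high group was set beside the INS-low group, with INS left out of the total. The groups held 47 nuclei each in the WT and 41 each in the PIGinH11 library. In the WT the INS share ran from 0.710 to 5.28% in the INS-high and from 0.152 to 0.353% in the INS-low group. Depth differed in opposite directions, with medians of 4930 UMIs in the INS-high and 3151 in the INS-low group of the WT, and 2397 and 3280 UMIs in the PIGinH11 library. Of 2137 genes with at least 100 CPM on average, 1 was at least 2-fold higher in the INS-high group of both libraries (0.0468%), DPF3, a chromatin gene, with log2 ratios of 1.10 and 1.17. DPF3 was not among the 9 higher genes when the groups were made after thinning to 1000 UMIs. A further 8 (0.374%) were at least 2-fold lower in both, and 1098 of the 2137 lay on the same side in both libraries. PKHD1, a ductal gene, was one of the 8, with 74 UMIs in the INS-low and 23 in the INS-high group of the WT and 11 and 1 in the PIGinH11 library. MECOM, a transcription factor gene, had 40 and 22 UMIs in the WT and 35 and 6 in the PIGinH11 library, and KIAA1217, C8orf34, KLK1 and SYCN were the others with a symbol. KLK1 and SYCN are genes of exocrine cells. SYCN was not among the lower genes when the groups were made after thinning to 1000 UMIs, and KLK1 was not among them without the 3 nuclei with a second hormone. All 6 ductal markers past the filter were lower in the INS-high group of both libraries, with medians of −1.99 and −0.91. The 5 WT nuclei with at least 1% of ductal UMIs all lay in the INS-low group. Without the 7 WT nuclei rich in ductal or acinar markers the ductal medians were −0.13 and −0.91, and 4 of the 6 markers were lower in both libraries. With these nuclei left out, CTNNBL1 was the 1 gene at least 2-fold higher in both, and 4 genes were lower, MECOM, KLK1, SYCN and 1 without a symbol.

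The lists of beta cell function, from islet transcription factors to the stress response, had median log2 ratios of INS-high over INS-low nuclei from −0.13 to 0.37 in the WT and from −0.27 to 0.36 in the PIGinH11 library. RFX6 had 317 CPM in INS-low and 502 CPM in INS-high nuclei of the WT (0.66, 0.20 to 1.14) and 260 and 467 CPM in the PIGinH11 library (0.84, 0.21 to 1.48). The homeobox factor MEIS2 had −0.53 (−0.88 to −0.18) and −0.66 (−1.15 to −0.19), and MEIS1 −1.26 (−1.74 to −0.79) in the WT and −0.64 (−1.43 to 0.11) in the PIGinH11 library. These genes were picked from the list after it was compared, and the intervals cover counting error only. SLC2A2 had 0.66 in the WT and −0.24 in the PIGinH11 library, and PDX1 0.03 and 0.71. Of the 17 islet transcription factors 9 lay on the same side in both, a share near that of all genes (1098 of 2137). The highest mean ratios among genes on the same side belonged to NPSR1, the neuropeptide S receptor, with 3 UMIs in INS-low and 35 in INS-high nuclei of the WT and 25 and 29 in the PIGinH11 library (3.04 and 0.58), then to ZNF532 (2.45 and 0.65), PDE10A (2.19 and 0.44), PLAGL1 (0.33 and 2.21) and YAF2 (0.61 and 1.87). Their counting intervals span 0 in the PIGinH11 library for NPSR1 (−0.25 to 1.41), ZNF532 and PDE10A, and in the WT for PLAGL1 and YAF2. The lowest mean ratios belonged to PKHD1, KIAA1217 (−1.71 and −2.50), MECOM, C8orf34 (−2.29 and −1.22) and FLRT2, an adhesion gene (−2.85 and −0.64). For C8orf34 and FLRT2 the interval in the PIGinH11 library also spans 0.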

How the data were processed

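The deposited matrices hold raw UMI counts per gene and barcode, which the authors made with Cell Ranger (v3.1.0 in the methods, v5.0.0 in the file headers) from 10x libraries aligned to Sscrofa11.1, with barcodes selected by EmptyDrops, and which precede the study's own filters and doublet removal (Seurat v3.1.1). The WT matrix held 55784067 UMIs (median 3216 per barcode) and the PIGinH11 matrix 26228811 (median 1181.5). Of 31908 genes, 15410 had no symbol in the files, and 841 of them were named by their gene ID from a reference list of gene names.

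The beta nuclei and all gene lists were chosen with earlier results of these data known. Counts were summed over the nuclei of a class and divided by the UMIs of the class (CPM). Intervals are 95%, exact Poisson for sums, Clopper–Pearson for shares and exact conditional binomial for ratios, and cover counting error only. Each group had 1 library, so no p-value was computed. Genes with a mean of at least 50 CPM were compared. Named were the rule genes and markers and list members past the filter. The 10 highest and 10 lowest ratios at a mean of at least 100 CPM (without ribosomal protein and mitochondrial genes) were named too. So were the 15 leading genes over alpha and delta nuclei (without INS), the 10 most abundant, and the 5 highest and 5 lowest between INS groups. Genes named at or near 0 were chosen after their values were seen. Doublets were kept, and Scrublet (scanpy v1.11.5) scores served as an alternative (the top 0.8% for each 1000 barcodes). Expected shares at 1000 UMIs left out 7 WT and 21 PIGinH11 shallower beta nuclei. For ductal nuclei they left out 91 in the WT and 463 in the PIGinH11 library, with 1009 and 570 remaining. The ratios with their intervals and the thinning were checked on simulated Poisson counts. The choice of nuclei, the lists, the INS groups and the spread between nuclei were not simulated. The alternatives changed the limits on genes, mitochondrial share, INS, panel and RBPJL, the depth, the scaling, the free RNA and the filters, and leaving out nuclei rich in ductal or acinar markers, or with a second hormone, was added after seeing the data. Versions were Python 3.11.15, numpy 2.4.6, scipy 1.17.1, pandas 2.3.3 and matplotlib 3.10.9. Some genes are not reported here.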

Additional observations from a re-analysis of the deposited data

Results flagged for a closer look

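PDGFD and OSBPL10, higher in PIGinH11 than in WT beta nuclei, were lower in PIGinH11 alpha nuclei, with log2 ratios of −1.14 (−3.68 to 0.92, from 8 and 3 UMIs) and −1.38 (−3.00 to −0.00, from 19 and 6 UMIs), so the interval of PDGFD spans 0 and that of OSBPL10 ends next to it. GRM5, lower in PIGinH11 beta nuclei, was higher in PIGinH11 alpha nuclei, with a log2 ratio of 2.94 from 3 and 19 UMIs, of which 18 lay in 1 nucleus, and in acinar nuclei, with 1.14 from 251 and 326 UMIs (12.3 and 27.1 CPM). It was also higher in PIGinH11 delta nuclei (12 and 41 UMIs, 1.42, 0.46 to 2.48), where 2 nuclei held all 41, and in ductal nuclei (32 and 36 UMIs, 1.48, 0.75 to 2.21). These opposite directions were not tested, since each group had 1 library. Above the limits on genes or UMIs, 27 WT and 9 PIGinH11 barcodes met the other parts of the rule for beta nuclei and entered no comparison.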

How the results depend on the processing

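The ratios of 24 named genes (the check markers and the highest and lowest ratios) were recomputed under the alternatives. Of these values 321 moved by less than their counting interval and 50 moved further, and none past 2-fold changed sign. The genes with the lowest ratios, PRSS2 among them, and CCSER1, PDGFD and SIPA1L2 had a value under 15 alternatives. The other genes had one under 16. The missing value was the ratio with the level of nuclei without panel UMIs subtracted. For the first group this subtraction left nothing in at least 1 library, so no ratio could be formed. Their level in beta nuclei there did not exceed that of nuclei without panel UMIs. Outside these 24, the ductal genes SLC4A4 and SCTR went from −1.17 and −1.31 to 0.08 and 0.24 without the 7 WT nuclei rich in ductal or acinar markers. GRM5 stayed between −1.63 and −1.21, PDE10A between 3.40 and 4.38, FHOD3 between 1.96 and 3.55 and PRSS2 between −4.49 and −3.68 on the log2 scale, TH ran from 3.27 to 6.48, BCKDHB from 0.98 to 3.68 (the highest with the level of nuclei without panel UMIs subtracted) and KIAA0930 from 0.86 to 2.44. SLC2A2 ran from −1.08 to −0.50, past 2-fold in 1 alternative (INS of at least 5 UMIs and 0.5%). The share of beta nuclei follows the INS limit. With INS of at least 5 UMIs and 0.5%, beta nuclei were 0.516% of barcodes and 23.3% of endocrine nuclei in the WT and 0.349% and 13.5% in the PIGinH11 library, the INS log2 ratio was −0.37, and 347 genes were higher and 235 lower. With at least 1 UMI and 0.05% the shares were 1.28%, 57.9%, 1.05% and 40.9%. Without INS in the rule they were 1.81%, 81.8%, 2.02% and 78.4%, and the INS log2 ratio was −1.05. Without any RBPJL UMI the shares of barcodes were 0.864% and 0.684%. With every barcode thinned to 1000 UMIs the INS log2 ratio was −0.39, with 499 genes higher and 389 lower, and with beta nuclei thinned −0.34, 407 and 301. As a mean over nuclei it was −0.43. With the level of nuclei without panel UMIs subtracted 346 genes were higher and 55 lower. A filter of 20 CPM gave 528 higher and 359 lower, with 2 lower genes of electrical activity, 1 lower of the granule, 1 lower of exocytosis, 2 higher of the stress response and 5 higher of adhesion, and a filter of 200 CPM gave 22 and 35. Under median-of-ratios scaling 0 stress response genes were past 2-fold. INS groups made after thinning gave 9 higher and 13 lower genes, and 4 lower without nuclei rich in ductal or acinar markers. The cause of these shifts was not tested. Without the 3 nuclei with a second hormone 0 genes of electrical activity were higher. The 120 other values recomputed, among them the 44 genes 4-fold over alpha and delta nuclei, stayed within their interval or within 1.5 times. Depth limits low genes, as for GIPR, where 25 and 26 UMIs give an interval from 0.02 to 1.72. No paired analysis was possible because each group had 1 library and no result came from a test.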
